A study of Homo sapiens with 4 samples.

Results

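The genes described here are 149 of the 476 genes whose symbol is ZNF followed by digits alone, out of 36601 features counted. A gene was included where it reached 15 counts per 1000000 UMIs (CPM) in at least 1 of 4 libraries, so members were chosen by their measured levels, and 2 genes were left out by the rule. The counts came from H9 (WA09), a human embryonic stem cell line grown in mTeSR1 on Geltrex, and each library was a droplet single-cell library of RNA 3′ ends. The groups were wild-type cells and cells with SIRT1, a gene for a protein deacetylase, deleted, each profiled at day 0 and day 6 of a protocol that directs the cells to dopaminergic neurons, with 1 library in each group. The sources used here give neither the number of knockout clones nor the part of SIRT1 removed.

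ZNF proteins carry C2H2 zinc fingers, short folds held by a zinc ion between pairs of cysteines and histidines, which most often read DNA and in some members bind RNA or protein. Many also carry a KRAB domain, which recruits the corepressor TRIM28 and, through it, the histone methyltransferase SETDB1, and which is known in embryonic stem cells for silencing retrotransposons. KRAB zinc finger genes multiplied by local duplication and stand in dense clusters on chromosome 19. A SCAN domain, found in fewer members, pairs zinc finger proteins with each other. Members without either domain include factors of pluripotency, neural development, splicing, ribosome assembly and the mitotic spindle.

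Translated coding sequences of the GENCODE annotation gave a KRAB pattern in 70 of the 149 members, a SCAN pattern in 7 and neither in 76, and a gene can hold both patterns. Stretches of coding sequence show what these patterns look like in ZNF141 and ZNF493, the members that were lowest in the knockout at day 0. The KRAB stretches, in the second of 4 exons of each gene (ZNF141 at chr4:343788-343889, ZNF493 at chr19:21405135-21405236, both on the plus strand of GRCh38), follow with the codons of the conserved KRAB positions in capitals.
ZNF141 KRAB: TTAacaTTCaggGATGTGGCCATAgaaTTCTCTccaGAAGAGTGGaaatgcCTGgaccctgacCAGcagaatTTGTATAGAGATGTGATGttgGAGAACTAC
ZNF493 KRAB: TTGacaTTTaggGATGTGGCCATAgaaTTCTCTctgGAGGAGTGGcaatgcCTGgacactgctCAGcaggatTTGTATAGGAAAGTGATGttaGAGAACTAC
A stretch of the last exon (ZNF141 at chr4:373038-373100, ZNF493 at chr19:21423209-21423271, plus strand, GRCh38) codes for 1 finger each, with the codons of its cysteines and histidines in capitals.
ZNF141 finger: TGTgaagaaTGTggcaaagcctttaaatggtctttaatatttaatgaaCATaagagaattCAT
ZNF493 finger: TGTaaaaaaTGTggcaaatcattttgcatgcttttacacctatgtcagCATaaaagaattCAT
The members held a median of 10 finger patterns, and KRAB members a median of 11.

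Promoter windows in the RefSeq table of GRCh38.p14 matched 134 of the 149 members. The bases upstream of the start site are shown for the 6 members that were at least 1.5-fold lower in the knockout at day 0, because 5 of them share a pair of 8-letter words in the same order. These words, TGTCACTC and CCAATCAG, were picked after the sequences and the ratios had been seen, and they are in capitals. They read 5′ to 3′ on the strand of the gene, and the second holds the letters CCAAT. The regions are chr4:337564-337813 (plus strand) for ZNF141, chr19:21396883-21397118 (plus) for ZNF493, chr19:20039507-20039755 (minus) for ZNF682, chr19:12156735-12156984 (minus) for ZNF625, chr19:20776054-20776303 (plus) for ZNF66 and chr19:36772826-36773057 (minus) for ZNF850. ZNF430, at chr19:21020407-21020619 (plus), is added as a member with both words that was not lower in the knockout.
ZNF141: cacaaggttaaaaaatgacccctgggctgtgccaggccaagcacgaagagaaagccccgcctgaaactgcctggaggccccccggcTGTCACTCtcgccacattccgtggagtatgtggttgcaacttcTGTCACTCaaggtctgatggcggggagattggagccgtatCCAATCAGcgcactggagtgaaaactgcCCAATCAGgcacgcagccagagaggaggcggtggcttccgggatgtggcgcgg
ZNF493: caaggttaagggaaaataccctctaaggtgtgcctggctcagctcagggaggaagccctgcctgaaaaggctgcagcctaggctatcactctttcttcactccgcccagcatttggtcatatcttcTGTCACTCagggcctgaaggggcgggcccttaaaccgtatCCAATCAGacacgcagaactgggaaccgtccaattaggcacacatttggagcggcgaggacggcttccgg
ZNF682: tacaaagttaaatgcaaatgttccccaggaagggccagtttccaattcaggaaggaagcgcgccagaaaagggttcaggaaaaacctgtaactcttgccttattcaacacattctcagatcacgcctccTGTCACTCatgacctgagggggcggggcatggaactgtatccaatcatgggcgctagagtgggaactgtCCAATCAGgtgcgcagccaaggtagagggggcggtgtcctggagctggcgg
ZNF625: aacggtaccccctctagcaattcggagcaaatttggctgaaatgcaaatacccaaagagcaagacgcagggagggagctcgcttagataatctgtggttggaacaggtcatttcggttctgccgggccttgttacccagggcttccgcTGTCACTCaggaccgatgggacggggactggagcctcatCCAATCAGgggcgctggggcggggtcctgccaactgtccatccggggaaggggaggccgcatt
ZNF66: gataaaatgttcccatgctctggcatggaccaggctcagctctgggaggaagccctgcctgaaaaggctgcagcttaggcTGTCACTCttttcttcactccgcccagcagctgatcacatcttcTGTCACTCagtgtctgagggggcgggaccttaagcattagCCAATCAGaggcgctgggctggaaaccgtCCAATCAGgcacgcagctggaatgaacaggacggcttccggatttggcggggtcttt
ZNF850: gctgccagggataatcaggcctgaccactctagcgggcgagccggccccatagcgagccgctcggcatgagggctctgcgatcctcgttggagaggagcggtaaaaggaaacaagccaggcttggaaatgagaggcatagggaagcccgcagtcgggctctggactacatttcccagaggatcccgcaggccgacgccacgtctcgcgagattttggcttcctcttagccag
ZNF430: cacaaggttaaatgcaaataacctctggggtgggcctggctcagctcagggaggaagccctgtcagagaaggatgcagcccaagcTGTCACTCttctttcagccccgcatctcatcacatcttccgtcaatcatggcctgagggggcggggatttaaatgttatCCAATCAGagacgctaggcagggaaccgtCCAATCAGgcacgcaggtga
ZNF850 holds neither word. In the windows of 250 bases before and 50 bases after the start, both words occurred, on either strand, in 21 of 63 KRAB members (33.3%) and in 2 of 71 other members (2.82%). Among all 6655 genes at 15 CPM or more with a window the share was 0.481%, and among all 27305 windows, 1 per symbol, it was 0.267%. All 23 members with both had them on the strand of the gene. The first began 92 to 168 bases before the start (median 126), and in 13 of the 23 exactly 32 bases lay between the words. Counted with or without the other word, TGTCACTC (reverse GAGTGACA) was in 17.2% of member windows and 1.36% of all windows. CCAATCAG (reverse CTGATTGG), counted in the same way, was in 24.6% and 4.16%. All 23 member windows with TGTCACTC also held CCAATCAG.

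Cells passing the filters numbered 5533 in wild type and 7275 in the knockout at day 0, and 5372 and 4419 at day 6, with medians of 8367 to 13169 UMIs per cell, a UMI being a tag that counts each captured molecule once. These cells held 51424092 to 73451883 UMIs per library. SIRT1, the targeted gene, had 32.3 CPM in wild type against 7.11 CPM in the knockout at day 0, and at 30.2 and 9.95 CPM at day 6. It was thus lower in both knockout libraries (4.54-fold and 3.04-fold), although 3′ tags outside the deleted part would not register the deletion. Pluripotency transcripts were present at day 0, with POU5F1 at 838 CPM in wild type against 911 CPM in the knockout, against 185 and 182 CPM at day 6. Other measures moved with the groups. Ribosomal protein genes took 24.2% and 24.9% of UMIs at day 0 and 32.1% (wild type) and 27.96% (knockout) at day 6, a share that enters every CPM. In each cell the share of chromosome 20 was taken among UMIs outside ribosomal protein and mitochondrially encoded genes. Cells with at least 3% by this measure made up 96.3% of wild type and 28.3% of the knockout at day 0, and 78.1% and 27.3% at day 6. Wherever cells with at least 3% of UMIs from chromosome 20 are named below, this measure is meant, and their values are given for some genes. Any 2 libraries shared 5 to 18 cell barcodes.

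Each level below is a sum over all cells of a library, so a change in the share of a cell type cannot be told apart from a change in RNA per cell. No difference has a replicate check, and no test was made. Ranges in parentheses after a ratio or level are exact 95% intervals, which cover counting error only. A member is called higher or lower where its CPM ratio was at least 1.5-fold with an interval excluding 1.

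The members together held 5001 CPM in wild type against 4950 CPM in the knockout at day 0, and 4767 and 5557 CPM at day 6, or 0.477% to 0.556% of all UMIs. Every cell carried some of them. With cells thinned to 4000 UMIs, the mean was 20.04 member UMIs per cell in wild type and 20.1 in the knockout at day 0, and 19.3 and 22.1 at day 6. Unthinned, the medians were 62, 43, 41 and 73 UMIs in the same order. In barcodes with 1 to 50 UMIs, which hold free RNA, members summed to 4307 to 4996 CPM, close to their level in cells. A total of 89 members reached 15 CPM in all 4 libraries and 24 in only 1. Just inside the limit stood ZNF740 (highest level 15.2 CPM), ZNF793 (15.3) and ZNF100 (15.3), and just outside it ZNF768 (14.7), ZNF616 (14.7) and ZNF525 (14.6). Of the 325 genes under the limit, 162 reached 5 to 15 CPM in their highest library, and 13 ZNF genes had no UMI.

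ZNF207, a spindle protein that binds the checkpoint factor BUB3, had the highest mean level of the family, at 224 CPM in wild type against 239 CPM in the knockout at day 0 and at 232 and 273 CPM at day 6. Its ratios stayed within 1.2-fold in all 4 comparisons. ZNF706 followed with 144, 142, 94.4 and 135 CPM in the same order, so wild type at day 6 was the low library. ZNF292, a large gene mutated in neurodevelopmental disorders, had 89.9, 104, 64.2 and 135 CPM, with the 2 day-6 libraries at opposite ends. Next came ZNF22 (76.4 to 107 CPM over the libraries), ZNF638, an RNA-binding nuclear protein (75.7 to 117 CPM), and ZNF281, a stem cell factor that interacts with NANOG (79.7 to 99.5 CPM). ZNF106 (80.5 to 102 CPM), ZNF581, ZNF326, a subunit of a complex that links splicing to elongation, ZNF217, ZNF462 and ZNF593 completed the highest 12. None of these 12 has a KRAB pattern. The mean level over libraries had a median of 20.8 CPM in KRAB members and 30.3 CPM in members with neither pattern. Counts of 3′ ends do not scale with transcript length, so no length correction was applied.

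**Figure D1:**
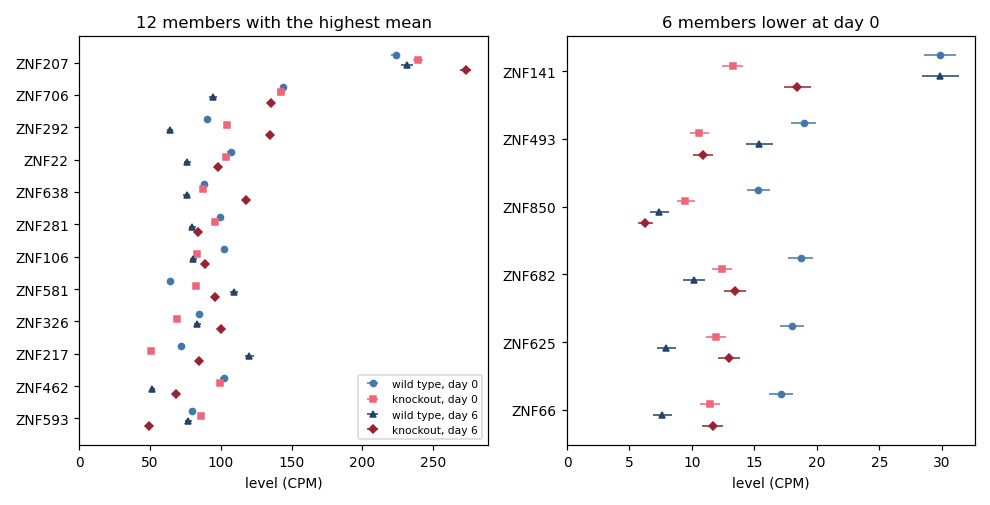
Levels in CPM (horizontal axes, linear, from 0) of the 12 members with the highest mean (left) and of the 6 members lower in the knockout at day 0 (right), 1 symbol per library, with exact 95% intervals for counting error. ZNF207 lies at 224 to 273 CPM in all libraries, and for each gene on the right the knockout lies below wild type at day 0.

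The day-0 comparison set the knockout library against the wild-type library before differentiation. No member was higher in the knockout and 6 were lower, 4.03% of 149, where 1.76% of all 8249 features at the same level were higher and 1.92% lower. All 6 are KRAB genes. Of all 70 KRAB members, these 6 included, 54 had a ratio below 1. The median log2 ratio was -0.04 over the members and -0.13 over KRAB members, with all features at -0.00. Of the 6, ZNF850, ZNF682, ZNF625 and ZNF66 reached 15 CPM only in wild type at day 0, so they became members through the library in which they were high. With the limit set on the mean over libraries instead, ZNF141 was the only member called lower.

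ZNF141 (ENSG00000131127, chr4:337814-384864, plus strand), a KRAB protein with 10 finger patterns counted among those that bind retrotransposons, was the lowest. It had 29.8 CPM in wild type against 13.2 CPM in the knockout at day 0, and 29.9 and 18.4 CPM at day 6. Both knockout libraries lay below both wild-type libraries. The knockout was below wild type 2.25-fold (2.09 to 2.43) at day 0 and 1.62-fold (1.501 to 1.75) at day 6, and ZNF141 was the only member called lower on both days.

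ZNF493 (chr19:21397119-21427573), which has 19 finger patterns, had 18.9 CPM in wild type against 10.6 CPM in the knockout at day 0, and 15.3 and 10.9 CPM at day 6. The order of the genotypes was again the same on both days, with the knockout 1.79-fold (1.64 to 1.95) lower at day 0 and 1.41-fold at day 6, short of the limit. ZNF850 (chr19:36714383-36772825, minus strand), with 30 finger patterns, had 15.3, 9.48, 7.37 and 6.26 CPM, library by library in that order. It was highest in wild type at day 0, 1.62-fold (1.47 to 1.78) above the knockout. ZNF682 (chr19:19997058-20039506, minus strand) had 18.7, 12.4, 10.2 and 13.4 CPM, with its maximum also in wild type at day 0, 1.51-fold (1.39 to 1.64) above the knockout.

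ZNF625 (chr19:12142090-12156729, minus strand) had 18.0 CPM in wild type against 11.9 CPM in the knockout at day 0, and 7.93 and 12.96 CPM at day 6. The genotypes thus changed places: at day 0 the knockout lay 1.51-fold (1.38 to 1.64) below wild type, and at day 6 it lay 1.63-fold (1.45 to 1.84) above. ZNF66 (chr19:20776304-20807322) followed the same course with 17.1, 11.4, 7.58 and 11.6 CPM, 1.502-fold (1.38 to 1.64) lower and then 1.54-fold (1.36 to 1.74) higher. With TMM factors neither gene passed 1.5-fold on either day, at log2 ratios of -0.53 and 0.49 for ZNF625 and -0.52 and 0.40 for ZNF66. In both genes the wild-type level dropped between the days while the 2 knockout libraries lay within 1.1-fold of each other.

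Some of these ratios sit close to the limit. With TMM factors in place of total UMIs, 3 members were higher and 3 lower, where 2.28% and 1.39% of all features were. Among knockout cells with at least 3% of UMIs from chromosome 20 only 2 of the 6 were still called lower, with log2 ratios of -1.23 for ZNF141, -0.59 for ZNF682, -0.51 for ZNF850, -0.41 for ZNF493, -0.41 for ZNF625 and -0.36 for ZNF66, so all 6 kept their sign. Just short of 1.5-fold were ZNF626 (27.3 CPM in wild type, 18.8 CPM in the knockout), ZNF334, ZNF138 and ZNF217. The highest ratio at day 0 belonged to ZNF428 (37.3 and 55.9 CPM, log2 ratio 0.58), followed by ZNF580 (31.9 and 46.6 CPM), which overlaps ZNF581 and CCDC106 on its strand, and ZNF516 (10.2 and 14.7 CPM). None of these 3 has a KRAB pattern.

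The difference between protein classes at day 0 was present at higher and at lower levels. Among members with a mean of 30 CPM or more, 10 of 14 KRAB genes and 17 of 40 others had a log2 ratio below 0, with medians of -0.15 and 0.09. Under 30 CPM the numbers were 44 of 56 and 16 of 39, with medians of -0.12 and 0.05. The ZNF genes at 5 to 15 CPM, which were not members, gave 85 of 107 KRAB genes below 0 (median -0.18) and 25 of 55 others (median 0.02), beside 1927 of 3504 features of that level (median -0.03). Genes of chromosome 19 outside the ZNF family did not share the direction, with 176 of 503 below 0 and a median of 0.09. Over the settings tried, the KRAB median at day 0 ran from -0.16 to -0.07, the latter with TMM factors, where 44 of 70 were below 0. In knockout cells with at least 3% of UMIs from chromosome 20 the median was -0.09, with 42 of 70 below 0.

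Members with both 8-letter words stood further down. At day 0, 20 of these 23 had a log2 ratio below 0, 5 were called lower and none higher, and the median was -0.29. KRAB members with a window but not both words gave 28 of 42 below 0, 1 called lower and a median of -0.06. The 71 members with a window and no KRAB pattern gave 30 below 0 and a median of 0.05. Of these 71, 2 hold both words and are also among the 23. Since the words were found in the promoters of lower members, these counts are a description. Among ZNF genes at 5 to 15 CPM, 12 of 12 with both words were below 0 (median -0.37), against 65 of 84 KRAB genes without both (median -0.15). Among genes of other families at 15 CPM or more, 8 had both words, and 6 of them were below 0 with a median of -0.05. The exceptions among members with both words were ZNF430, ZNF714 and ZNF678. ZNF430, with 17.8 CPM in wild type against 20.3 CPM in the knockout, has both of its words in the region printed above. Over the settings tried the median of the 23 ran from -0.33 to -0.15, and the value nearest 0 came from knockout cells with at least 3% of UMIs from chromosome 20, where 18 of 23 were below 0.

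**Figure D2:**
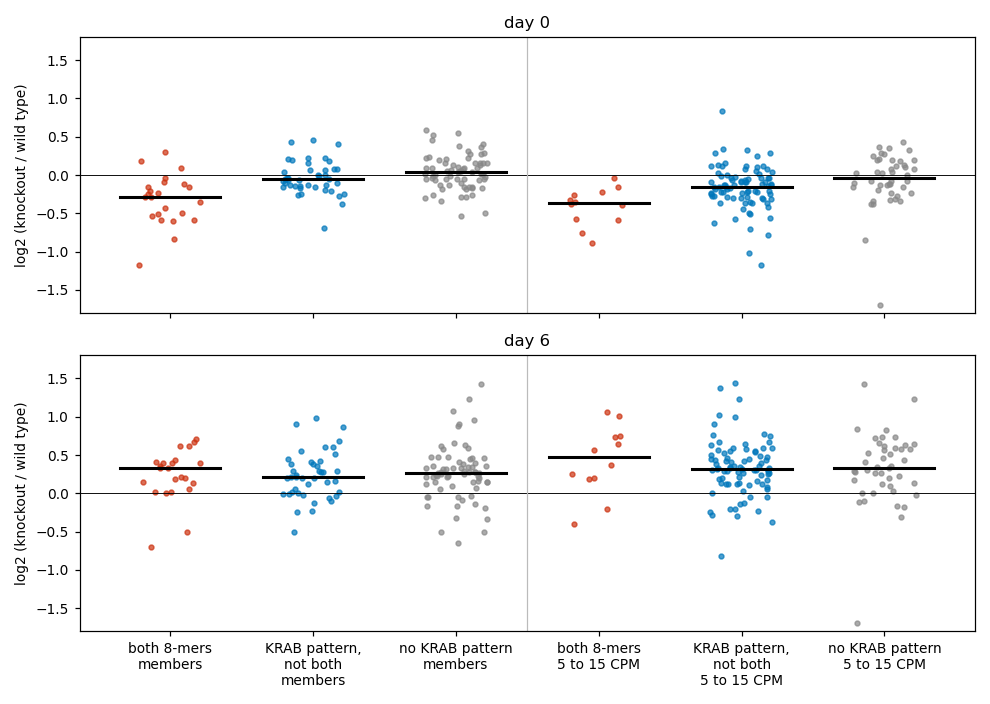
Log2 ratio of knockout to wild type (vertical axes) at day 0 (top) and day 6 (bottom) for members (left of the grey line) and ZNF genes at 5 to 15 CPM (right), by whether the promoter window holds both 8-letter words and, otherwise, by KRAB pattern. Each point is a gene, black bars are medians (-0.29 for members with both words at day 0), genes without a window are left out, and 1 gene, ZNF717, lies beyond the lower edge on both days and is drawn at the edge.

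Over the whole family 87 of 149 members, and 4158 of 8249 features, had a day-0 log2 ratio below 0. Most of the physical clusters had a larger share below 0 than the family. In the cluster from ZNF626 to ZNF254 on chromosome 19 (chr19:20620061-24129961), 12 of 13 members are KRAB genes, 11 of 13 had a day-0 log2 ratio below 0, and the median was -0.24. In the neighbouring cluster from ZNF101 to ZNF486 (chr19:19668796-20200490), all 5 members were below 0 with a median of -0.43, among them ZNF93 and ZNF90. ZNF90 had 36.8 CPM in wild type against 27.4 CPM in the knockout at day 0. In the clusters from ZNF559 to ZNF562 and, on chromosome 12, from ZNF605 to ZNF268, all members (5 and 4) were below 0 too. The chromosome 19 cluster from ZNF146 to ZNF793 had 5 of 6 below 0, with a median of -0.15. From ZNF649 to ZNF331, also on chromosome 19, 6 of 7 were below 0, with a median of -0.125. The cluster from ZNF264 to ZNF8 near the end of chromosome 19 differed, with 4 of 7 members above 0 and a median of 0.20, and on chromosome 16 the cluster from ZNF48 to ZNF689 had 2 of 4 below 0. ZNF264 there had 13.8 CPM in wild type against 18.7 CPM in the knockout. Members of a cluster share ancestry and part of their sequence, so they are not independent, and reads that fit several copies could be lost or split in counting.

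At day 6 the direction was the opposite. A total of 24 members were higher in the knockout (16.1%, where 16.5% of all features were) and 2 were lower (1.34%, where 4.78% were). The share of higher members was thus near that of all features, and the median log2 ratio, 0.27, was near the 0.24 of all features. The split depended on the scaling. TMM factors gave 11 members higher and 6 lower, where 6.87% of all features were higher and 8.12% lower. The median was then 0.06 over members and 0.02 over all features. A total without ribosomal protein and mitochondrially encoded genes gave 14 higher and 6 lower, where 11.2% and 5.84% of all features were. KRAB members gave 11 higher and 1 lower with a median of 0.23, and members with neither pattern 12 higher and 1 lower with a median of 0.28. The 23 members with both words had a median of 0.33, with 4 higher and 1 lower, and 0.12 with TMM factors.

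ZNF883 (chr9:112997120-113050043, minus strand) had the highest ratio, with 12.8 CPM in wild type against 11.2 CPM in the knockout at day 0, and 5.99 and 16.1 CPM at day 6. The low library was wild type at day 6, 2.69-fold (2.37 to 3.07) below the knockout, and the gene overlaps ZFP37 on its strand, so reads could be assigned to either. ZNF660, which overlaps ZKSCAN7 and ZNF197, had 16.3, 13.7, 8.54 and 20.004 CPM, 2.34-fold (2.10 to 2.62) higher at day 6. ZNF117, which shares its strand and position with ERV3-1, an endogenous retroviral gene, had 12.3, 9.73, 8.17 and 15.9 CPM, 1.94-fold (1.73 to 2.18) higher. In each of these 3 genes wild type at day 6 was the lowest library and the knockout at day 6 the highest. ZNF883 and ZNF117 are members only through the knockout at day 6, so the rule itself fixed which of their libraries was highest. With TMM factors the day-6 log2 ratios were 1.21 for ZNF883, 1.01 for ZNF660 and 0.74 for ZNF117, from 1.43, 1.23 and 0.96. In knockout cells with at least 3% of UMIs from chromosome 20 they were 1.42, 1.20 and 0.96.

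ZNF292 (chr6:87152833-87264196) had the third highest ratio of all members at day 6, at 64.2 CPM in wild type against 135 CPM in the knockout, 2.10-fold (2.02 to 2.19) higher, against 1.16-fold at day 0. ZNF160 (chr19:53066606-53103436, minus strand), a KRAB gene, had 23.1, 31.9, 31.4 and 62.3 CPM and was 1.98-fold (1.87 to 2.10) higher at day 6 and 1.38-fold at day 0. The knockout was above wild type on both days in these 2 genes. ZNF521 (chr18:25061926-25352190, minus strand), a factor that promotes neural fate in embryonic stem cells, had 12.9, 13.4, 11.9 and 22.1 CPM. The 3 other libraries lay between 11.9 and 13.4 CPM, and the knockout at day 6 was 1.86-fold (1.69 to 2.05) above wild type. ZNF521 too is a member only through the knockout at day 6, so the rule itself fixed that library as its highest. ZNF32 (33.1, 29.8, 9.49 and 17.8 CPM) and the KRAB gene ZNF302 (27.6, 25.02, 9.08 and 16.96 CPM) had both day-6 libraries below both day-0 libraries, with the knockout 1.87-fold higher at day 6 in each. In knockout cells with at least 3% of UMIs from chromosome 20 the day-6 log2 ratios were 1.19 for ZNF292, 0.92 for ZNF160, 0.86 for ZNF521, 0.81 for ZNF32 and 0.90 for ZNF302. Among all cells they were 1.07, 0.99, 0.89, 0.90 and 0.90.

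The 2 members lower at day 6 were ZNF141 and ZNF593. ZNF593, a factor of ribosome assembly with a single finger pattern, had 79.6 CPM in wild type against 85.8 CPM in the knockout at day 0, and 77.01 and 49.2 CPM at day 6. Only the knockout at day 6 was low, 1.57-fold (1.49 to 1.64) below wild type. In knockout cells with at least 3% of UMIs from chromosome 20 the log2 ratios at day 6 were -0.49 for ZNF141 and -0.53 for ZNF593, and neither was then called. The 3 members on chromosome 20 itself differed with that share. ZNF217, an oncogene that binds corepressors, had 71.9 and 50.9 CPM at day 0 and 120.2 and 84.7 CPM at day 6, wild type first. Its log2 ratio was -0.50 on both days, and -0.19 and -0.33 in those cells. ZNF334 had a log2 ratio of -0.54 at day 0 and 0.66 at day 6, and -0.32 and 0.93 in those cells, while ZNF337 had -0.14 and -0.04. Since the cells were selected by their chromosome 20 UMIs, the selection itself lifts members of that chromosome.

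The day-0 and day-6 knockout ratios, which come from different libraries, did not run in parallel. Across the 149 members Pearson's r was 0.101 and Spearman's rho -0.025, beside 0.214 and 0.087 over all 8249 features. Genes are not independent replicates, and the points of a day share 2 libraries. Of the 6 members called lower at day 0, ZNF141 was lower, ZNF625 and ZNF66 were higher, and ZNF493, ZNF682 and ZNF850 were in neither class at day 6. In the cluster from ZNF626 to ZNF254, 12 of 13 members had a day-6 log2 ratio above 0, with a median of 0.33. In the cluster from ZNF101 to ZNF486 all 5 were above 0 at day 6, with a median of 0.14. Of all 8249 features, 6066 were above 0 at day 6 with a median of 0.24 (0.02 with TMM factors), so the sign in these clusters is that of most features and the second median lies below theirs.

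**Figure D3:**
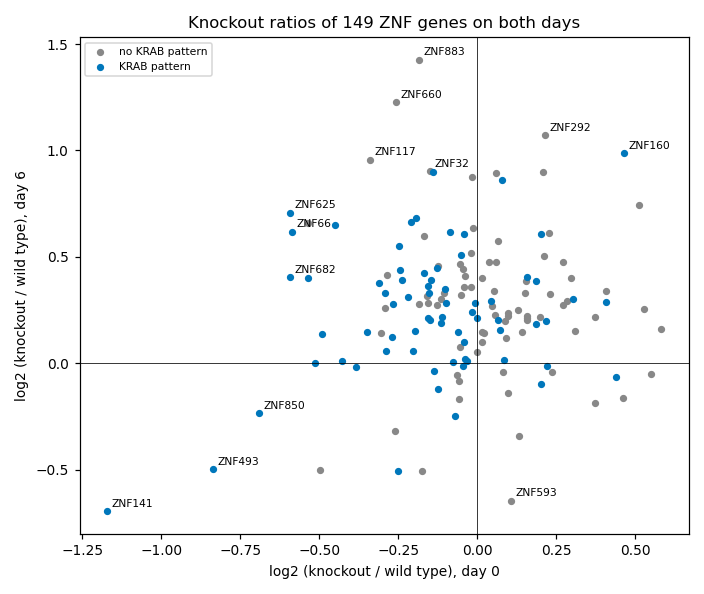
Log2 ratio of knockout to wild type at day 0 (horizontal axis) and day 6 (vertical axis) for the 149 members, with KRAB genes in blue and the others in grey. ZNF141 lies at the lower left with -1.17 and -0.70, ZNF625 and ZNF66 lie left of 0 and above 0, and 122 members lie above 0 at day 6.

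At day 6 against day 0 in wild type, 17 members were higher in CPM (11.4%, where 12.2% of all features were higher) and 36 lower (24.2%, where 35.3% were lower). In the knockout 29 were higher (19.5%, where 13.8% were) and 12 lower (8.05%, where 20.4% were). Medians were -0.11 in wild type and 0.16 in the knockout, with all features at -0.31 and -0.09, so in both genotypes the members' median lay above that of all features. TMM factors moved the median of all features to 0.10 in wild type and 0.04 in the knockout. In wild type 46 members were then higher and 20 lower, where 25.1% and 17.9% of all features were. In the knockout 38 were higher and 9 lower, where 18.5% and 15.4% of all features were. The members' wild-type median was 0.30 with these factors, so its sign depends on the scaling.

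ZNF143 (chr11:9460319-9528524), a promoter-binding factor also found at chromatin loops, had the highest wild-type ratio, with 27.7 CPM in wild type against 30.4 CPM in the knockout at day 0, and 78.3 and 61.8 CPM at day 6. Both day-6 libraries lay above both day-0 libraries, 2.83-fold (2.68 to 2.98) in wild type and 2.03-fold (1.93 to 2.14) in the knockout. ZNF608 had 29.3, 25.9, 68.0 and 47.9 CPM, 2.33-fold and 1.85-fold higher. ZNF445, a KRAB protein that protects genomic imprints, had 27.2, 36.1, 56.2 and 68.5 CPM, 2.07-fold (1.95 to 2.19) and 1.90-fold (1.81 to 1.995) higher. ZNF219 (31.4, 40.7, 55.4 and 64.4 CPM) was 1.76-fold and 1.58-fold higher.

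In the knockout the highest day ratios belonged to ZNF83 (11.2 to 27.8 CPM, 2.48-fold), ZNF555 (6.56 to 16.2 CPM, 2.47-fold), ZNF675 (11.8 to 28.6 CPM, 2.42-fold), ZNF226 (16.4 to 37.9 CPM, 2.31-fold) and ZNF254 (13.8 to 31.3 CPM, 2.27-fold). The first 4 of these were also called higher in wild type, at 1.66-fold, 2.15-fold, 1.71-fold and 2.12-fold. ZNF91, a KRAB protein that binds SVA retrotransposons, had 26.6 CPM in wild type against 23.9 CPM in the knockout at day 0, and 39.9 and 50.2 CPM at day 6. The day-6 libraries were the higher ones in both genotypes, 1.499-fold in wild type, just short of the limit, and 2.10-fold (1.98 to 2.23) in the knockout. Its neighbours ZNF43 (23.3 to 45.3 CPM) and ZNF100 (8.07 to 15.3 CPM) were 1.94-fold and 1.90-fold higher in the knockout, and 6 of the 13 members of the cluster from ZNF626 to ZNF254 were called higher there. ZNF555 and ZNF100 are members only through the knockout at day 6, so the rule itself fixed which of their libraries was highest.

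ZNF398 (chr7:149126416-149182802), a KRAB gene that acts in human pluripotent cells downstream of TGF-beta signalling, was the lowest, with 28.5 CPM in wild type against 31.9 CPM in the knockout at day 0, and 7.16 and 9.47 CPM at day 6. Day 6 was 3.99-fold (3.57 to 4.47) below day 0 in wild type and 3.36-fold (3.08 to 3.68) in the knockout, with no overlap between days. ZNF770 followed the same course at a higher level, with 94.8, 88.0, 39.5 and 49.6 CPM, 2.40-fold and 1.77-fold lower. ZNF827, whose protein recruits a repressor complex to telomeres, had 29.6, 34.3, 11.6 and 16.5 CPM, 2.54-fold and 2.07-fold lower. ZNF32 was 3.49-fold (3.16 to 3.85) lower in wild type and 1.68-fold in the knockout, and ZNF302 3.03-fold lower in wild type and 1.48-fold in the knockout, short of the limit.

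A total of 12 members were higher and 11 lower at day 6 in both genotypes, and 79 were in neither class in both. These overlaps were not counted over all features, so they describe the members alone. ZNF117 was the only member called in opposite directions, 1.51-fold lower in wild type and 1.63-fold higher in the knockout. With TMM factors its wild-type log2 ratio moved from -0.59 to -0.19 and was no longer called. The day ratios of the genotypes come from different libraries, and across members Pearson's r was 0.778 and Spearman's rho 0.750, beside 0.843 and 0.823 over all features.

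**Figure D4:**
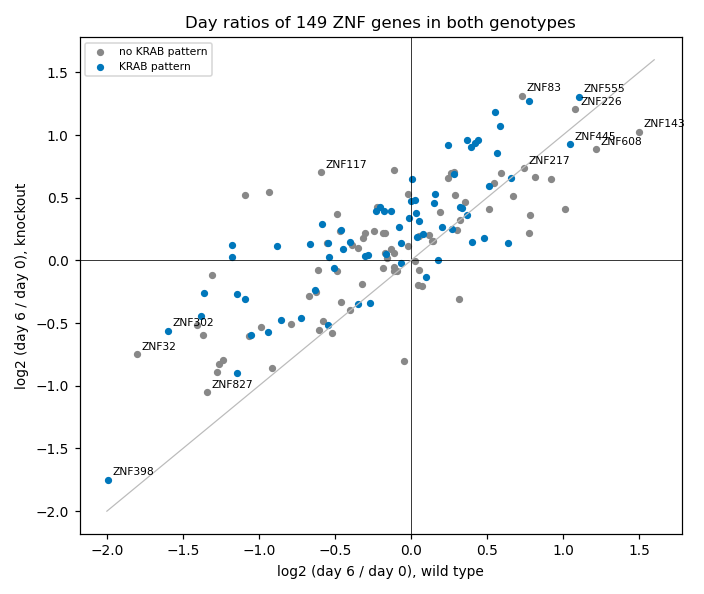
Log2 ratio of day 6 to day 0 in wild type (horizontal axis) and in the knockout (vertical axis) for the 149 members, with KRAB genes in blue and the others in grey. The grey diagonal marks equal ratios, ZNF398 lies at -1.99 and -1.75, ZNF143 at 1.498 and 1.02, and ZNF117 lies left of 0 and above 0.

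The lists of members by known role were chosen with earlier results of these data in view, so their counts are descriptions. Calls in every list stand beside the shares of all 8249 features. At day 0, 1.76% of these features were higher in the knockout and 1.92% lower, with 16.5% and 4.78% at day 6. Over time 12.2% were higher and 35.3% lower in wild type, and 13.8% and 20.4% in the knockout. Of 13 genes of pluripotency and stem cells, 12 were at the limit, and none was called between genotypes on either day. Over time in wild type, ZNF143, ZNF217 and ZNF219 were higher, and ZNF398, ZNF462, ZNF483 and ZNF589 lower. These 4 lower of 12 are near the share of all features. In the knockout, ZNF138 joined the first 3, and ZNF398 and ZNF589 were lower. ZNF462, a chromatin factor with 34 finger patterns, had 102, 99.2, 51.5 and 68.4 CPM. It was 1.98-fold lower at day 6 in wild type and 1.45-fold in the knockout, short of the limit. ZNF483, a KRAB gene, had 80.3, 61.5, 41.9 and 41.4 CPM, highest in wild type at day 0. ZNF281 stayed within 1.3-fold throughout.

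Of 24 neural development genes, 10 were at the limit. ZNF292 and ZNF521 were higher in the knockout at day 6, 2 of 10, where 16.5% of all features were. ZNF521 is a member only through that library. Over time ZNF219 and ZNF608 were higher in both genotypes, ZNF24, ZNF521 and ZNF711 were higher in the knockout, and ZNF423 and ZNF462 were lower in wild type. That is 2 of 10 higher and 2 lower in wild type, where 12.2% and 35.3% of all features were. In the knockout it is 5 higher and 0 lower, where 13.8% and 20.4% were. ZNF423, a paralogue of ZNF521 that acts in hindbrain and cerebellar development, had 25.2, 26.2, 14.6 and 18.5 CPM, with both day-6 libraries below both day-0 libraries. ZNF711, an X-linked gene of intellectual disability, had 13.1, 13.6, 15.9 and 22.2 CPM, with the knockout at day 6 above the rest.

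Of 20 KRAB genes known to bind retrotransposons, 8 were at the limit, 1 of them ZNF33A, whose symbol ends in a letter and which is therefore no member. At day 0, 7 of the 8 were below 0 with a median of -0.20, but only ZNF141 was called lower. At day 6, ZNF93 and ZNF649 were called higher and ZNF141 lower. ZNF93, which binds LINE-1 elements, had 28.996, 27.3, 21.1 and 32.4 CPM, and only wild type at day 6 was low, 1.54-fold (1.43 to 1.65) below the knockout. With TMM factors the day-6 log2 ratios of ZNF93 and ZNF649 were 0.40 and 0.44, short of the limit. ZNF649 had 21.04, 15.4, 8.17 and 12.8 CPM, highest in wild type at day 0 and lowest in wild type at day 6. Of 6 imprinting-related genes 3 were at the limit, none was called between genotypes, and over time ZNF445 and ZNF264 were higher in wild type and ZNF445 in the knockout. The third, ZNF331, itself an imprinted gene, had 24.6 to 28.5 CPM in all 4 libraries.

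Of 11 promoter-binding genes, 7 were at the limit. ZNF740 was higher in the knockout at day 6 and lower in wild type over time (15.2, 14.98, 5.72 and 10.5 CPM), and ZNF143 was higher over time in both genotypes. ZNF740 is a member only through wild type at day 0, so the rule itself fixed that library as its highest. Of 17 genes acting on RNA, ribosomes, the spindle or repair, 16 were at the limit and none was called at day 0. At day 6, ZNF638 was higher in the knockout (75.7 and 117 CPM, 1.55-fold, but short of the limit with TMM factors at a log2 ratio of 0.42) and ZNF593 lower. Over time ZNF598, a ubiquitin ligase that senses collided ribosomes, was lower in both genotypes (16.2, 18.0, 8.60 and 9.96 CPM), as were ZNF706 and ZNF318 in wild type.

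The genes through which KRAB proteins act are no members and were counted beside them. TRIM28 had 241 and 246 CPM at day 0 and 191 and 223 CPM at day 6, wild type first. SETDB1 had 16.6, 18.6, 21.4 and 28.1 CPM in the same order. Of 28 corepressor genes at the limit, CHD3 alone was called at day 0, at 19.6 CPM in wild type against 42.0 CPM in the knockout. At day 6, 5 were higher in the knockout and none lower. Over time 13 were lower and 1 higher in wild type (median log2 ratio -0.56), and 4 were lower and 2 higher in the knockout (median -0.19), beside medians of -0.07 and 0.20 for the KRAB members and -0.31 and -0.09 for all features. Of all features 16.5% were higher at day 6 in the knockout than in wild type, and over time 35.3% were lower in wild type and 20.4% in the knockout.

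Cells of each library were also clustered without the ZNF genes, so that cluster borders did not rest on the members. Clusters under 300 cells were left out. In wild type at day 0, 30 of 141 members reaching 15 CPM in a cluster differed at least 1.5-fold between the highest and lowest of 5 clusters (21.3%, where 23% of all features did). In the knockout at day 0 it was 7 of 125 over 4 clusters (5.6%, where 8.16% did), in wild type at day 6 37 of 116 over 5 (31.9%, where 36.6% did), and in the knockout at day 6 49 of 137 over 6 (35.8%, where 44.9% did). The median ratio of highest to lowest cluster was 1.22 to 1.40. These counts depend on how finely cells are clustered. At Leiden resolution 1 they were 42 of 142 members in wild type (29.6%, where 26.6% of all features did) and 34 of 131 in the knockout (26%, where 24% did) at day 0. At day 6 they were 79 of 119 in wild type (66.4%, where 60.7% did) and 74 of 140 in the knockout (52.9%, where 57.3% did). The members' share thus lay below that of all features in all 4 libraries at the coarser resolution, and above it in 3 of 4 at the finer. These ranges include counting error, clusters number differently in each library, and cells of a library are not replicates.

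ZNF141 lay at 25.7 to 34.8 CPM in the wild-type clusters and 10.9 to 15.3 CPM in the knockout clusters at day 0, with no overlap. At day 6 the ranges were 25.9 to 36.2 CPM and 16.5 to 22.4 CPM, again without overlap. ZNF143 lay at 24.6 to 37.2 CPM in all day-0 clusters and at 49.6 to 86.5 CPM in all day-6 clusters. The genotype difference of ZNF141 and the day difference of ZNF143 were thus present in every cluster counted.

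Other members marked single clusters. In cluster 5 of wild type at day 0, ZNF521 stood at 34.04 CPM (28.6 to 40.2), against 9.40 to 14.1 CPM in the other clusters. That cluster was given no cell type name, because none of its leading genes was among the neural progenitor markers, its closest match. Of those markers, 8 were at least 2-fold above the other cells. PTN, 1 of the markers, had 650 CPM there, against 48.1 to 66.0 CPM in the other clusters. HOXB-AS3, RSPO3, LHX5-AS1, APLNR and SIX3 led the cluster, LHX1 came further down, and POU5F1 had 576 CPM. ZNF398 was low there, at 18.0 CPM against 26.1 to 37.3 CPM, and ZNF483 too, at 47.4 CPM against 64.1 to 105 CPM. At day 6 in the knockout, the order was the reverse in cluster 5, which carries pluripotency markers, with POU5F1 at 517 CPM. ZNF483 had 69.6 CPM there against 30.7 to 44.1 CPM elsewhere, ZNF398 14.1 CPM against 6.23 to 10.5 CPM, and ZNF521 14.1 CPM against 19.3 to 25.1 CPM. In wild type at day 6, ZNF483 was likewise highest, at 59.7 CPM, in cluster 1, which has POU5F1 at 344 CPM. ZNF318 was high in the cluster with mitotic markers at day 6, at 26.3 CPM in wild type against 34.7 CPM in the knockout, against 11.1 to 16.1 CPM in the others. ZNF331 had 11.9 CPM in cluster 2 of the knockout at day 6 and 28.2 to 35.7 CPM in the rest.

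**Figure D5:**
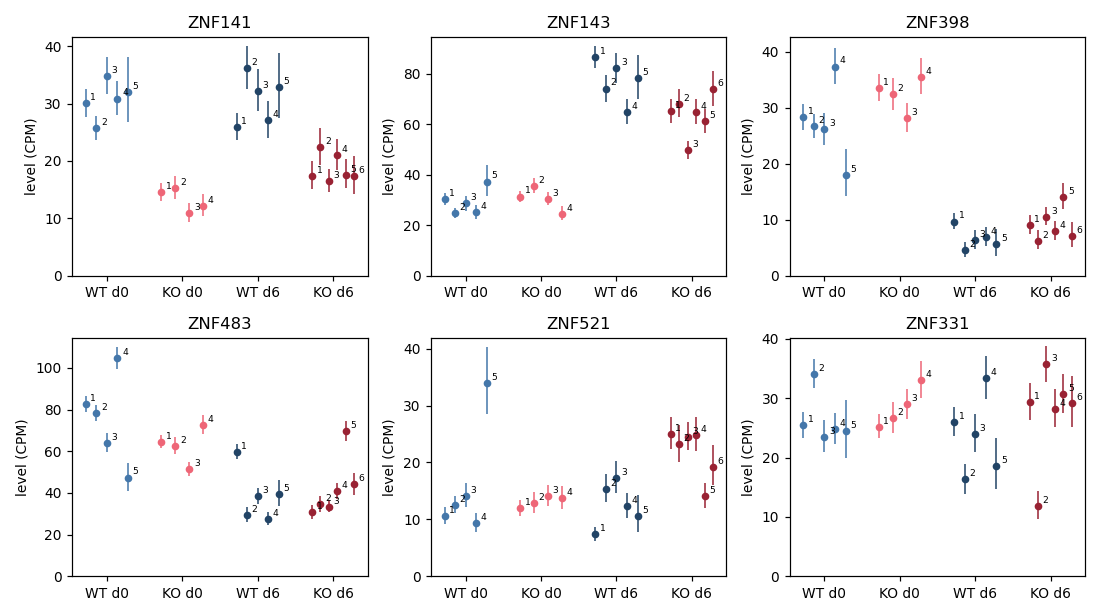
Levels in CPM (vertical axes, linear, from 0) of ZNF141, ZNF143, ZNF398, ZNF483, ZNF521 and ZNF331 in each cluster of at least 300 cells, numbered within its library (WT wild type, KO knockout, d0 and d6 the days), with exact 95% intervals for counting error. The wild-type clusters of ZNF141 lie at 25.7 CPM or more and the knockout clusters at 22.4 CPM or less.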

How the data were processed

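The labels' protocols name the 10x Chromium 3′ kit, and there was 1 library in each of 4 groups. The authors deposited raw UMI counts per gene and barcode. Per the submitters' processing notes, Cell Ranger 6.1.2 and GRCh38 were used, while the matrices name Cell Ranger 4, per the file headers. No source used here gives the annotation version. Libraries held 54824132 to 78917192 UMIs. Barcodes with at least 4000 UMIs, at least 1000 genes and at most 20% mitochondrial UMIs were kept as cells. Scrublet (in scanpy 1.11.5) marked 0 cells, so its call was taken as failed and doublets were kept.

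The counts of each library's cells were added up and scaled to CPM. Ratios carry exact conditional binomial (Clopper-Pearson) 95% intervals from scipy 1.17.1, and log2 ratios use a prior count of 0.5. With 1 library per group no p-value is given. Other scalings used edgeR 4.0.16 for TMM factors. The intervals cover counting error at this depth only.

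Positions and coding sequences came from GENCODE (GRCh38), joined by Ensembl identifier for all 149 members. The KRAB, SCAN and finger patterns were searched in translated coding sequences, in place of a protein table. Promoter windows came from RefSeq (GRCh38.p14), matched by symbol, and the first was taken for the 29 members with several. Each library was clustered alone in scanpy on 2000 variable genes without ZNF genes, 30 principal components, 15 neighbours and Leiden resolution 0.5.

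Members named were the 12 with the highest means, the 10 highest and 10 lowest ratios of each comparison, the 5 highest and 5 lowest differences between days, up to 4 per list and comparison, the 3 on either side of the limit, those on chromosome 20 and those of the physical clusters described (at least 4 members with gaps of at most 250 kb). The members, lists and tests were chosen with earlier results of these data known. The 2 genes left out by the rule are not reported here. Alternatives changed the scaling, cell filters, weights, free RNA, doublets, chromosome 20 class, level and fold limits and cluster resolution.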

Additional observations from a re-analysis of the deposited data

Results flagged for a closer look

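In 2 members the genotypes differed in opposite directions on the 2 days, each past 1.5-fold. The log2 ratio of knockout to wild type was -0.59 at day 0 and 0.71 at day 6 for ZNF625, and -0.59 at day 0 and 0.62 at day 6 for ZNF66. For ZNF117 the log2 ratio of day 6 to day 0 was -0.59 in wild type and 0.70 in the knockout, and this gene overlaps ERV3-1 on its strand. With TMM factors the values were -0.53 and 0.49 for ZNF625 and -0.52 and 0.40 for ZNF66, none past 1.5-fold, and ZNF117 had -0.19 in wild type, no longer called. In knockout cells with at least 3% of UMIs from chromosome 20 the day-0 values were -0.41 for ZNF625 and -0.36 for ZNF66, short of the limit, and the day-6 values 0.98 and 1.06. With 1 library per group, the difference between these effects was not tested.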

How the results depend on the processing

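No paired analysis was possible because each group had 1 library. For knockout against wild type at day 0 (0 higher, 6 lower), TMM and median-of-ratios factors each gave 3 higher and 3 lower, and subtracting free RNA gave 1 higher. Of all features, 2.28% were higher and 1.39% lower with TMM factors. The lower count was 2 in knockout cells with a chromosome 20 share of 3% or more, 1 at a limit of 2-fold, 0 at a limit of 30 CPM and 1 at a mean of 15 CPM. At day 6 (24 higher, 2 lower, median log2 ratio 0.27), TMM and median-of-ratios factors each gave 11 higher and 6 lower, with medians of 0.060 and 0.034. Of all features, 6.87% and 6.28% were higher and 8.12% and 8.73% lower with these factors. A total without ribosomal protein and mitochondrially encoded genes gave 14 and 6, beside 11.2% and 5.84% of all features. A limit of 2-fold gave 3 and 0, and 30 CPM gave 7 and 1. A mean of 15 CPM gave 11 higher, and the chromosome 20 class 0 lower. For day 6 against day 0 in wild type (17 higher, 36 lower, median -0.11), TMM and median-of-ratios factors each gave 46 and 20, with medians of 0.30 and 0.31. Of all features, 25.1% and 25.5% were higher and 17.9% and 17.6% lower with these factors. There 2-fold gave 6 and 20, 30 CPM gave 9 lower and a median of 0.088, and a mean of 15 CPM gave 20 lower. In the knockout (29 higher, 12 lower, median 0.16), the medians were 0.28 with TMM and 0.27 with median-of-ratios factors, 2-fold gave 7 and 2, and 30 CPM gave 19 and 5 with a median of 0.26. Fewer members stood at the stricter limits, and for the other changes the cause was not tested. At Leiden resolution 1, members ranging at least 1.5-fold over clusters numbered 34 (from 7) in the knockout at day 0, 79 (from 37) in wild type at day 6 and 74 (from 49) in the knockout at day 6. Of 700 values of single members under other settings, 523 moved by less than their counting interval, 177 by more, and 0 called values changed sign. Leaving out the 3 members on chromosome 20 moved no count of calls by more than 1.5 times. That setting, the word pair and the promoter comparison were chosen after seeing the data. Counting error is the only error the intervals cover, and culture, clone and library effects cannot be told apart from genotype or day.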

Other observations

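Below the limit of 15 CPM, 2 ZNF genes differed between genotypes by far more than any member, and both were picked after their values had been seen. ZNF717 (chr3:75678660-75785583) had 706 UMIs in wild type and 1 UMI in the knockout at day 0, and 290 and 1 UMIs at day 6. The ratio was 706-fold lower in the knockout at day 0, with a counting interval of 126 to 27930, and 368.5-fold lower at day 6, with an interval of 65.6 to 14600. ZNF441 (chr19:11767000-11784078) had 116 UMIs in wild type and 0 in the knockout at day 0, and 114 and 0 at day 6. Against a floor of 3 counts per library it was at least 38.7-fold lower at day 0 and at least 48.3-fold lower at day 6, and the lower bounds of the exact 95% intervals were 30.96-fold and 38.6-fold. Both genes were thus near or at 0 in both knockout libraries and present in both wild-type libraries. Within 300 kb, the day-0 log2 ratios of 3 other genes around ZNF717 were 0.39 to 1.48, and those of 16 genes around ZNF441 were -1.77 to 0.69 with a median of -0.34.

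Next to ZNF141 on chromosome 4, ZNF718 had 4.75 CPM in wild type against 2.59 CPM in the knockout at day 0. ZNF732 there had 7.29 and 4.98 CPM, a log2 ratio of -0.55, short of the 1.5-fold limit. At day 6 ZNF718 had 2.625 and 1.99 CPM, while ZNF732 had 4.78 and 7.74 CPM, with the knockout above wild type. The member ZNF721 in the same stretch had 52.8 and 48.8 CPM at day 0, and 62.4 and 76.8 CPM at day 6. Of other zinc finger families, 8 of 13 ZBTB genes at the limit were higher and 1 lower at day 6 in wild type, with 6 and 1 in the knockout. Of all features, 12.2% were higher and 35.3% lower over time in wild type, and 13.8% and 20.4% in the knockout. Of the 4 ZSCAN genes at the limit, 1 was higher and 3 were lower over time in wild type. None of the ZBTB, ZSCAN, ZKSCAN and ZFP genes at the limit was called between genotypes at day 0.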
